A study of Mus musculus with 2 samples.

Results

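The genes described here are 10 regulators of G protein signalling (RGS), Rgs1, Rgs2, Rgs3, Rgs10, Rgs11, Rgs12, Rgs14, Rgs16, Rgs18 and Rgs19, chosen by name and matched by Entrez Gene number among the 27179 genes of the deposited count table. All 10 were found. The rule names them and sets no threshold on their values, though they were listed with earlier results of these data known. Their transcripts were read by RNA-seq in the primary mouse leukaemia ALL65, a T cell acute lymphoblastic leukaemia (T-ALL), in spleen cells of leukaemic recipient mice isolated by flow sorting. The leukaemia carries Vav-tTA, in which the Vav promoter drives a tetracycline-controlled activator in blood cells, and TRE-GFP-shIkaros, an inducible hairpin against Ikaros linked to green fluorescent protein. Both groups carry both transgenes. GFPhigh cells came from untreated mice, and GFPmid cells from mice given doxycycline (Dox) for 3 days, which turns the hairpin off so that the cells' own Ikaros returns. The series' text speaks of 3 mice per group, while the table holds 1 column per group, so every value is from 1 library and no difference has a replicate check. All cells descend from 1 leukaemia, and the sort gate differs between the groups together with the treatment, so that the effects of gate and treatment cannot be told apart. The sources used here give neither strain nor age.

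Receptors such as those for chemokines and sphingosine 1-phosphate switch on heterotrimeric G proteins by loading GTP onto the alpha subunit. RGS proteins bind the active alpha subunit and speed up its hydrolysis of GTP, which shortens the signal. In lymphocytes they are known for tuning how cells respond to chemokines. The family is divided by sequence into small proteins of the R4 subfamily (Rgs1, Rgs2, Rgs3, Rgs16 and Rgs18 here), the R12 subfamily (Rgs10, Rgs12 and Rgs14), the RZ subfamily (Rgs19) and the R7 subfamily (Rgs11).

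Depth was 7477988 counts in the untreated and 14457475 in the Dox library. Ikzf1, the gene that the hairpin targets, had a level of 262 in counts-per-million (CPM) untreated and of 1455 CPM after Dox. The 10 T lineage markers listed were all measured and summed to 4800 CPM and 5460 CPM. Of these, 4 were at least 1.5-fold higher with Dox, Cd8b1 at a log2 ratio of 1.27 (past 2-fold), Cd4 at 0.83, Cd8a at 0.80 and Cd247 at 0.78, and 0 were 1.5-fold lower. With 1 library per group, a size rule stands in for a test: a gene passed if the libraries differed 2-fold or more and the higher one reached 5 CPM. That minimum of 5 CPM was met by 10113 genes, of which 2.21% were at least 2-fold higher with Dox and 2.24% at least 2-fold lower. At 1.5-fold the shares were 6.28% and 6.18%, beside the 4 and 0 of the 10 T lineage markers, which all met the minimum. Ratios are Dox over untreated on a log2 scale, computed with a small constant (a prior count of 2), and the bounds beside them are exact 95% intervals that cover counting error only.

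The RGS genes fell into a group of 6 that was transcribed in both libraries and a group of 4 that was at or next to 0. Rgs2, Rgs3, Rgs10, Rgs12, Rgs14 and Rgs19 had at least 5 CPM in each library. Rgs11, Rgs16 and Rgs18 had 0 counts in both libraries, and Rgs1 had 0 untreated counts and 1 Dox count. None of the 6 transcribed genes passed the 2-fold rule, with 0 higher and 0 lower. Over all genes meeting the minimum, 2.21% were higher and 2.24% lower, so 0 of 6 cannot be set apart from those shares. The other 4 genes could not pass, since they lacked 5 CPM. At 1.5-fold, 1 gene was higher (Rgs14) and 0 were lower, where 6.28% of all genes meeting the minimum were higher and 6.18% lower. The median log2 ratio of the 6 transcribed RGS genes was 0.06, against 0.01 over all genes that met the minimum.

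**Figure D1:**
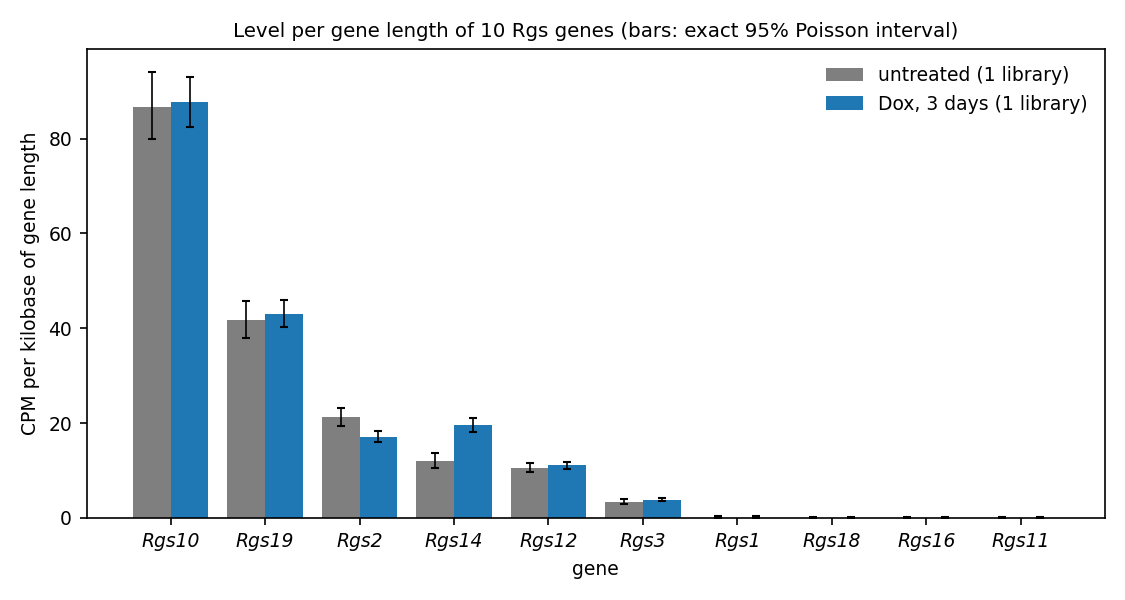
Level of each of the 10 RGS genes in CPM per kilobase of gene length, in the untreated library (grey) and the Dox library (blue), with exact 95% Poisson intervals as error bars. Rgs10 stands highest at 86.8 and 87.6, Rgs14 is the gene with the clearest step up, from 12.0 to 19.5, and the 4 genes at the right are at or next to 0.

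Start regions were available for 6 of the 10 genes, with 10 annotated starts among them (RefSeq, GRCm38.p6, 250 bases before to 50 bases after each start). Rgs1, Rgs11, Rgs14 and Rgs18 had none, so Rgs14, the member with the largest difference, could not be searched. The available regions were searched on both strands for GGGAA, the core letters that Ikaros proteins bind, and for the longer TGGGAA, which contains it. Of 32851 such windows over all genes, 62.7% held GGGAA and 25.6% held TGGGAA. The windows of 3 genes are printed. Rgs10 is shown by a rule that takes the most abundant member per length, Rgs2 as the gene that stood lower with Dox and Rgs19 as a member with matches whose ratio spans no difference. Each choice rests on measured values, and Rgs2 and Rgs19 were added after theirs were seen. Capitals mark GGGAA or its reverse complement TTCCC.
Rgs10, chr7:128418123-128418422, minus strand: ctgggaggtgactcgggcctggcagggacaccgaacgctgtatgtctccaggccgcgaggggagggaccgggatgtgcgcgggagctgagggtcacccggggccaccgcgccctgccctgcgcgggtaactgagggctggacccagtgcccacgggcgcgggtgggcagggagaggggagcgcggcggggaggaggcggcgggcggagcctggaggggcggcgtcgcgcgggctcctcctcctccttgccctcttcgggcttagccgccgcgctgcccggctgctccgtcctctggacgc
Rgs2, chr1:144004100-144004399, minus strand: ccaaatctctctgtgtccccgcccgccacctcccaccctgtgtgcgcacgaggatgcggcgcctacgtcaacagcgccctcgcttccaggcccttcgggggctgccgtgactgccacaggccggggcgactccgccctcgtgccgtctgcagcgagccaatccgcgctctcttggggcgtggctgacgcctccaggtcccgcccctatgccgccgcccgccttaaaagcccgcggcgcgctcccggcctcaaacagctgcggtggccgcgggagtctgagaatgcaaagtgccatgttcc
Rgs19, the first of 3 starts, chr2:181693928-181694227, minus strand: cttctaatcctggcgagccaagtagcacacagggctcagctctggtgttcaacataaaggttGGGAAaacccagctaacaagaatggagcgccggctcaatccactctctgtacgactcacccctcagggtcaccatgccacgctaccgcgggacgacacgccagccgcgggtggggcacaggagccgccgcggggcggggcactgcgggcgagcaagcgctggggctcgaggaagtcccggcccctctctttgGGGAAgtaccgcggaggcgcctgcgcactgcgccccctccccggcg

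The Rgs10 and Rgs2 windows held 0 matches to GGGAA, as did that of Rgs16, a gene with 0 counts. The printed Rgs19 window held 2 matches, beginning at positions 63 and 255 of the window counted from its 5′ end, and 1 of them read TGGGAA. The windows at the other 2 starts of Rgs19 held 2 and 0. The printed window overlaps the next one, and its match at position 255 is the match at position 88 there. That site is therefore counted in both windows. Both Rgs3 windows held 1 match each, and each of these read TGGGAA. Of the Rgs12 windows, the one at the upstream start held 0 and the one at the downstream start held 1, which also read TGGGAA. The Rgs10 and Rgs2 windows were rich in CpG dinucleotides, with 34 and 33, where the median window held 7. More CpG was found in 7.0% and 7.7% of all windows. High counts were not particular to windows without a match. The 3 Rgs19 windows held 27, 37 and 4 CpG, and the one with 37 held 2 matches. The Rgs12 windows held 23 at the upstream and 3 at the downstream start. The Rgs3 windows held 4 and 9, and the Rgs16 window held 22. A match describes letters in the window and is no measure of binding.

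Genes of the R12 subfamily held the largest part of the RGS transcripts, mostly through Rgs10. Levels of different genes are compared as CPM per kilobase of gene length. On that scale Rgs10, Rgs12 and Rgs14 summed to 109 without Dox and 118 with Dox, which was 61.9% and 64.5% of the sum over 21 RGS genes (the 10 described here and 11 others). Rgs10, a small protein that is little more than an RGS domain, had 577 untreated counts and 1091 Dox counts, or 75.9 and 76.7 CPM. Per length it stood at 86.8 (79.8 to 94.1) and 87.6 (82.5 to 93.0) CPM per kilobase, 2.08 times the level of the next gene, Rgs19, in the untreated library. Its log2 ratio was 0.01 (-0.13 to 0.16), so the libraries did not differ beyond counting error.

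Rgs12, a large scaffold that carries a PDZ domain, Ras-binding domains and a GoLoco motif beside the RGS domain, had 451 and 884 counts. This gave 59.3 CPM without Dox and 62.1 CPM with Dox. The log2 ratio was 0.07 (-0.10 to 0.23), which spans no difference and lies within 1.5-fold to either side. Per length the gene was far lower than Rgs10, at 10.6 (9.64 to 11.6) and 11.1 (10.4 to 11.9). An annotated antisense gene, Gm43791, shares 467 bases with the exons of Rgs12 (5.50% of them in GENCODE vM21), and without a stated strand setting their reads cannot be told apart.

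Rgs14, the third R12 gene, was the member with the largest difference. Its protein joins an RGS domain, Ras-binding domains and a GoLoco motif, which holds inactive Gi alpha subunits. Its counts were 215 without Dox and 655 with Dox, or 28.3 CPM (24.6 to 32.3) and 46.0 CPM (42.6 to 49.7), and these intervals do not overlap. The level stood 1.62-fold higher with Dox (1.39 to 1.91), a log2 ratio of 0.70 (0.48 to 0.93). The interval lies above no difference, spans 1.5-fold and stays under 2-fold. An interval apart from 0 is common in these libraries, since 49.3% of the genes meeting the minimum had one that spans 0. Of the genes meeting the minimum, 4.62% had a higher ratio. The gene lies on chromosome 13 from 55369732 to 55384687 (GRCm38.p6, the assembly of mm10), and its exons share no base with another annotated gene. In bulk RNA, more cells that express a gene and more RNA per cell cannot be told apart.

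**Figure D2:**
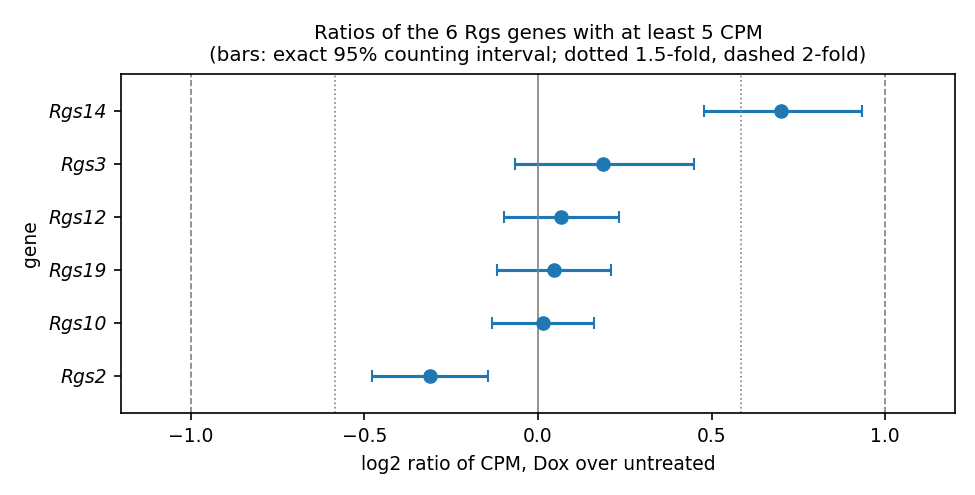
Log2 ratio of CPM, Dox over untreated, for the 6 RGS genes with at least 5 CPM, with exact 95% counting intervals as bars and lines at 0, 1.5-fold (dotted) and 2-fold (dashed). The interval of Rgs14 lies above 0, that of Rgs2 below 0, and the other 4 span 0. Of all genes meeting the minimum, 49.3% had an interval that spans 0.

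Rgs19, of the RZ subfamily and also known as GAIP, acts on Gi-class alpha subunits. It had 462 untreated counts and 893 Dox counts, which gave 60.8 and 62.8 CPM. The log2 ratio was 0.05 (-0.12 to 0.21). On the per-length scale it was the second most abundant member in both libraries, at 41.7 (38.0 to 45.7) and 43.1 (40.3 to 46.0), and it made up 23.6% and 23.5% of the RGS sum.

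The R4 genes, the subfamily best known in lymphocyte chemotaxis, made up 13.9% of the per-length sum without Dox and 11.4% with Dox, and 2 of the 5 were transcribed. Rgs2, a regulator with a preference for Gq-class alpha subunits, had 486 and 733 counts. Untreated cells had 63.9 CPM (58.4 to 69.9) and Dox cells 51.5 CPM (47.9 to 55.4), again without overlap of the intervals. It was 1.24-fold lower with Dox (1.10 to 1.39), a log2 ratio of -0.31 (-0.48 to -0.14). A ratio this low or lower is common in these libraries, since 15.0% of the genes meeting the minimum lay below it. Of the Gq-class genes, Gnaq had 1 and 2 counts, while Gna11 stood at 25.3 and 28.5 CPM.

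Rgs3, which acts on Gi-class and Gq-class subunits and is made in short and long forms from several starts, had 186 and 397 counts, or 24.5 and 27.9 CPM. Its log2 ratio of 0.19 (-0.07 to 0.45) spans no difference. Per length it was the lowest of the 6, at 3.35 (2.89 to 3.87) and 3.82 (3.46 to 4.22). The table counts whole genes over a listed length of 7301 bases, so that short and long forms are not separated and the level depends on that length.

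The other R4 genes were near or under the detection limit. Rgs1, which dampens chemokine responses of activated B and T cells, had 0 and 1 counts. Rgs16, an inducible regulator in T cells, and Rgs18, a regulator of platelets and myeloid cells, had 0 counts in both libraries. So did Rgs11, of the R7 subfamily, whose proteins pair with the G protein beta subunit Gnb5. Gnb5 itself had 24 and 45 counts. Taken as 3 counts of the scaled total, the limit for a count of 0 is 0.395 CPM in the untreated library and 0.211 CPM in the Dox library, and the upper bounds of the exact 95% Poisson interval are 0.485 and 0.259 CPM, so no fold is given for these genes and a difference was not detectable at this depth.

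In the order of levels per length, Rgs10, Rgs19 and Rgs2 led the untreated library, followed by Rgs14, Rgs12 and Rgs3. The intervals of Rgs14 and Rgs12 overlapped there, so those neighbours do not differ beyond counting error, while all other neighbours were apart. In the Dox library Rgs14, at 19.5 (18.1 to 21.1), stood next to Rgs2, at 17.1 (15.9 to 18.4), with overlapping intervals. It was there clear of Rgs12. The positions of Rgs10, Rgs19 and Rgs3 were the same in both libraries. These levels, and the shares of the RGS sum, use the length listed in the deposited table. With merged exon lengths of GENCODE vM21, an alternative chosen after seeing the data, Rgs10 stood at 44.4 and 44.8, Rgs14 at 6.67 and 10.9, Rgs12 at 6.99 and 7.32 and Rgs2 at 17.6 and 14.2. The order was then Rgs10, Rgs19, Rgs2, Rgs12, Rgs14 and Rgs3 without Dox, with overlapping intervals of Rgs12 and Rgs14. With Dox, Rgs14 stood below Rgs2, with intervals apart, and above Rgs12.

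**Figure D3:**
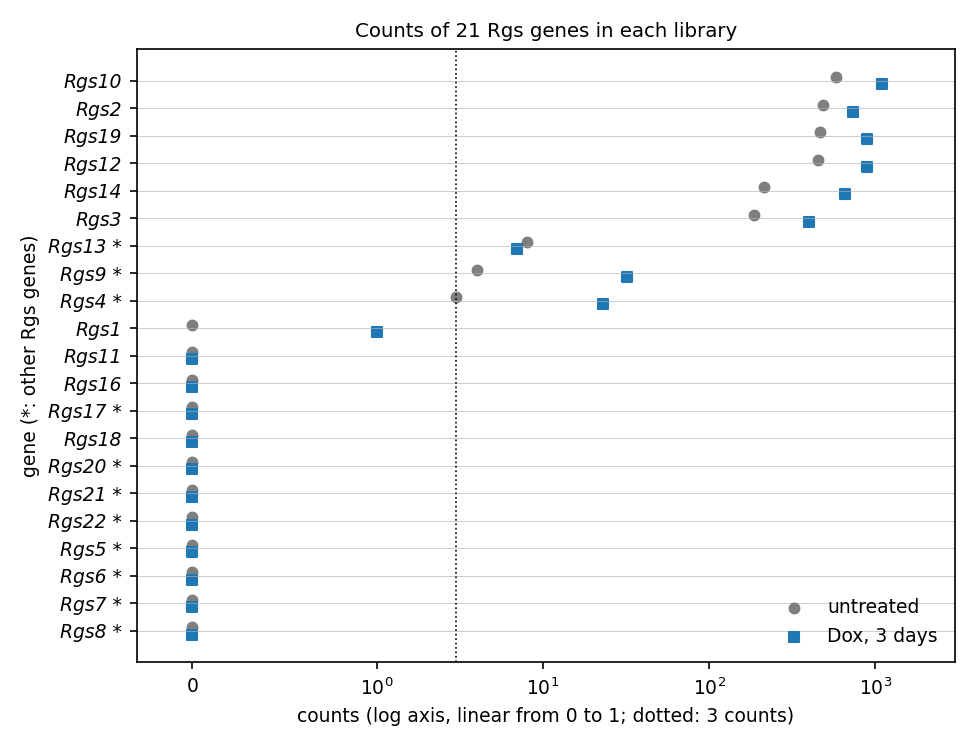
Counts of 21 RGS genes in the untreated library (circles) and the Dox library (squares), on an axis that is logarithmic above 1 and linear from 0 to 1, with a dotted line at 3 counts and an asterisk at the 11 genes outside the set of 10. The counts are not scaled for depth, 6 genes lie far above the rest, and 11 genes are at 0 in both libraries.

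Of the 11 other RGS genes listed, 8 had 0 counts in both libraries and 0 reached 5 CPM. The exceptions were named after their values were seen. Rgs4 had 3 and 23 counts, or 0.395 and 1.62 CPM, with a counting interval of its log2 ratio from 0.31 to 4.41. Rgs9 had 4 and 32 counts, or 0.526 and 2.25 CPM, with an interval from 0.60 to 4.06. Rgs13, a regulator of germinal centre B cells, had 8 and 7 counts. The 6 transcribed members together held 99.5% of the summed per-length level of the 21 genes without Dox and 99.3% with Dox.

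Neighbouring RGS genes differed in level. Rgs2, Rgs13, Rgs1, Rgs21 and Rgs18 lie next to each other on chromosome 1, with the start of Rgs18 0.75 megabases from that of Rgs2. Within this cluster, Rgs2 had 486 and 733 counts, while the other 4 genes had between 0 and 8. Rgs16 lies on the same chromosome, 9.74 megabases from Rgs2. Near it lies Rgs8, with 0 counts in both libraries.

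**Figure D4:**
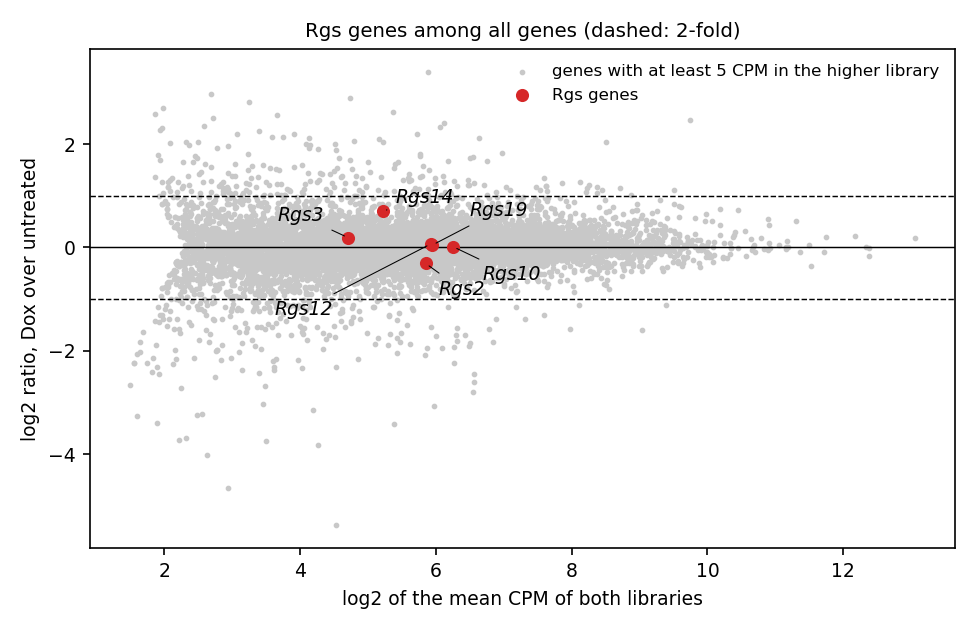
Log2 ratio, Dox over untreated, against the log2 of the mean CPM of both libraries for the 10113 genes that met the minimum of 5 CPM (grey) and the 6 RGS genes among them (red). All 6 lie between the dashed 2-fold lines, with Rgs14 nearest to the upper one.

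The rest of the pathway was described from lists of receptors, G proteins and their partners. Among 34 G protein coupled receptors of lymphocytes, 20 had at least 5 CPM, of which 6 were past 2-fold on the side of Dox and 1 on the untreated side. Of all genes meeting the minimum, 2.21% were past 2-fold higher with Dox and 2.24% lower. The median log2 ratio over the 26 receptors with a mean of at least 1 CPM was 0.79, against 0.01 over all 11498 genes with that mean. S1pr1, a receptor for sphingosine 1-phosphate that guides lymphocyte exit, had 143 and 1232 counts and a log2 ratio of 2.19 (1.95 to 2.46). S1pr4, of the same family, stood at 1.59 (1.22 to 2.03). Ccr9, a chemokine receptor of thymocytes, was at 260.5 and 579.9 CPM, which is a log2 ratio of 1.15 (1.08 to 1.23). Gpr171, which encodes a receptor related to the P2Y family, had 14 and 144 counts and the largest ratio of the list, 2.35 (1.66 to 3.37). The other receptors past 2-fold were Ccr7, at 1.04 (0.87 to 1.21), and Gpr174, at 1.15 (0.95 to 1.36), and the lower one was S1pr2, at -1.11 (-1.48 to -0.77) with 19.2 and 8.79 CPM. The intervals of these 3 reach under 2-fold. The ratio of Ccr7 was 0.99 with total counts and with the Dox counts thinned to the untreated total, and that of S1pr2 was -0.99 with thinning, each just short of the rule. Cxcr4, the receptor for CXCL12, stood at 150.9 and 156.4 CPM, with an interval of its log2 ratio from -0.05 to 0.16, and it was named after its value was seen.

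The ratios of the G protein alpha subunit genes spread less than those of the receptors. Of 16 alpha subunit genes, 7 had at least 5 CPM, and 0 of these reached 1.5-fold in either direction. Of all genes meeting the minimum, 6.28% were 1.5-fold higher and 6.18% lower, so 0 of 7 cannot be set apart from those shares. The most abundant per length were Gnai2, at 222 and 281 CPM per kilobase, Gnai3, at 121 and 132, and Gnas, at 56.0 and 69.8. Gnai2 and Gnai3 encode Gi alpha subunits, through which chemokine receptors act, and Gnas encodes the Gs alpha subunit, which activates adenylyl cyclase. Their log2 ratios were 0.34 (0.28 to 0.39), 0.13 (0.07 to 0.20) and 0.32 (0.25 to 0.38). Gna13 had a ratio of 0.40 (0.31 to 0.50), and Gna11 one of 0.17 (-0.08 to 0.43).

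Of 17 beta and gamma subunit genes, 7 had at least 5 CPM, of which 0 were past 2-fold and 1 was 1.5-fold higher. Over all genes meeting the minimum, 2.21% were 2-fold higher and 2.24% lower, and 6.28% were 1.5-fold higher and 6.18% lower. Counts among 7 genes are too few to set apart from those shares. The largest ratio among the 7 was that of the gamma subunit Gngt2, at 0.59 (0.23 to 0.98), followed by the beta subunit Gnb4 at 0.33 (0.20 to 0.46). Gng5 stood at 0.20 (-0.06 to 0.46) and Gnb1 at 0.14 (0.09 to 0.20). Receptor kinases and arrestins, which uncouple receptors from G proteins, held 5 of 7 genes with at least 5 CPM. Of these, 0 were past 2-fold and 1 was 1.5-fold higher, again too few to set apart. The higher one was Arrb2, an arrestin gene, with a ratio of 0.60 (0.43 to 0.77). Grk2 stood at 0.24 (0.18 to 0.30), Arrb1 at 0.20 (-0.15 to 0.55) and Grk6 at 0.05 (-0.03 to 0.13).

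Among 18 genes listed as other regulators of alpha subunits or related proteins, 14 had at least 5 CPM. Of these, 1 passed 2-fold with Dox higher, where 2.21% of all genes meeting the minimum did. This was Arhgef11, which encodes an exchange factor with an RGS-like domain, on 15 and 76 counts, with a ratio of 1.36 (0.63 to 2.34). Its relative Arhgef1, at 482 and 686 CPM, stood at 0.51 (0.45 to 0.56). Snx25 had a ratio of 0.47 (0.20 to 0.75) and Axin2 one of 0.43 (0.27 to 0.59). Over all genes meeting the minimum, 6.28% were at least 1.5-fold higher with Dox and 6.18% lower. Of 19 effectors of G proteins with at least 5 CPM, 2 passed 1.5-fold with Dox higher and 2 with Dox lower. These counts are too few to set apart from those shares, and 0 effectors passed 2-fold. The higher ones were the phosphodiesterase genes Pde4d, at 0.96 (0.81 to 1.12), and Pde3b, at 0.81 (0.71 to 0.91), which encode enzymes that break down cyclic AMP. The lower ones were Rapgef3, at -0.71 (-0.93 to -0.49), and Rapgef4, at -0.63 (-0.93 to -0.34), which encode exchange factors switched on by cyclic AMP.

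**Figure D5:**
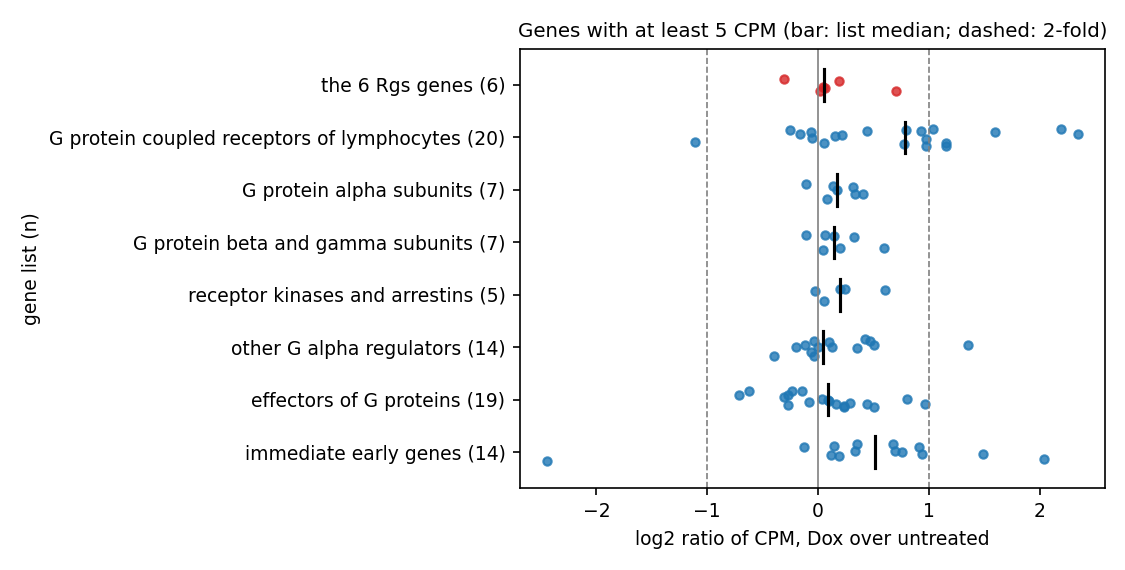
Log2 ratio of CPM, Dox over untreated, of each gene with at least 5 CPM in the 6 RGS genes (red) and 7 pathway lists (blue), with a black bar at each list's median and dashed lines at 2-fold. Over the genes plotted, the receptor median is 0.79 and the RGS median 0.06, and single receptors spread from -1.11 to 2.35.

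Several RGS genes are known to be switched on by stimulation, and genes of the immediate early response were therefore set beside them. There were 14 such genes with at least 5 CPM. Egr2 at 2.04 and Nr4a1 at 1.49 were past 2-fold higher, where 2.21% of all genes meeting the minimum were. Jun at -2.45 was past 2-fold lower, where 2.24% were. At 1.5-fold, 7 of the 14 were higher and 1 was lower, where 6.28% of all genes meeting the minimum were higher and 6.18% lower. The median log2 ratio of the 14 was 0.51. Egr1 stood at 0.93 (0.79 to 1.08). The 19 listed genes summed to 765 CPM in the untreated and 968 CPM in the Dox library. Their part in the ratios of Rgs2 and Rgs14 was not tested.

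Markers of other cells that a spleen sort could hold were mostly low. Of 9 megakaryocyte and platelet markers 5 were at 0 in both libraries, among them Pf4 and Gp9, and the sums were 1.45 and 1.69 CPM. The 9 B cell markers summed to 0.526 and 0.703 CPM, with Ms4a1 and Pax5 at 0. Of 9 myeloid markers, 3 had a mean of at least 1 CPM and 2, Mpo and S100a8, were at 0, with sums of 19.9 and 23.5 CPM. Lyz2 was lower with Dox, at 7.24 and 1.69 CPM, while Itgam was higher, at 8.42 and 14.7 CPM. The 6 natural killer cell markers summed to 0.789 and 2.67 CPM, the 5 erythroid ones to 3.55 and 4.71 CPM and the 6 dendritic cell ones to 0.526 and 2.04 CPM. The 5 stromal and endothelial markers summed to 361 and 329 CPM and moved apart. Pdgfrb passed the size rule on the untreated side: its levels were 35.3 and 10.5 CPM, a log2 ratio of -1.72 (-2.04 to -1.45). Col1a2 was lower at 165 and 112 CPM, Pecam1 was higher at 159 and 205 CPM, Col1a1 was at 1.97 and 1.83 CPM and Kdr was at 0. The part of such cells in the RGS ratios was not tested.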

How the data were processed

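The authors' deposited tables hold raw counts of reads for each gene, not normalized, and a gene length. Per the submitters' processing notes, CASAVA 1.8.2 and featureCounts were used with build mm10. The aligner, annotation, strand setting, handling of shared reads and how 3 mice and 2 runs became 1 column per group are, in the sources used here, not given. Between the series table and the separate library files 0 values differed.

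Entrez Gene numbers were matched to a RefSeq table of GRCm38.p6, which named 25275 of 27179 genes. Unnamed genes held 0.809% and 0.700% of the counts. Libraries were scaled by the trimmed mean of M values (edgeR 4.0.16, R 4.3.3), with factors of 1.02 and 0.984. CPM and log2 ratios (prior count of 2) use these sizes. Intervals are exact 95% Clopper-Pearson for ratios and Poisson for levels. They cover counting error only, since they are built from the counts of 1 library per group. No molecular identifiers are given for the reads, so duplicate reads may make the intervals too narrow. No test was run, since a group is 1 library. The size rule and intervals were tested on simulated data with counting error only, which does not cover variation between mice or libraries.

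The genes and lists were chosen with earlier results of these data known. Named were all 10 members, up to 4 genes per pathway list, by absolute ratio among those with 5 CPM or more, and the 3 most abundant alpha subunits. Further genes, among them Ccr7, Gpr174, S1pr2, Cxcr4, Gnaq, Gnb5, neighbours and markers, were named after their values were seen. Alternatives were DESeq2 1.42.0 size factors, total counts, other prior counts, minimums and folds, interval bounds, and Dox counts thinned to the untreated total, with GENCODE gene lengths added after seeing the data. Exon overlaps come from GENCODE vM21. Python 3.11.15 with scipy 1.17.1 was used.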

Additional observations from a re-analysis of the deposited data

How the results depend on the processing

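The log2 ratio of Rgs14 lay between 0.63 and 0.70 and that of Rgs2 between -0.44 and -0.31 under the 5 alternatives that recompute it (2 scalings, 2 prior counts, thinning). Rgs10 ranged from -0.05 to 0.01 and Rgs19 from -0.0003 to 0.05, so their sign, which the intervals do not fix, depends on the scaling or thinning. With a ratio of at least 1.5-fold, 1 RGS gene was higher, and no other alternative placed one past the rule. Over all genes, 407 were higher and 440 lower with a minimum of 1 CPM, 129 and 104 with 20 CPM, 784 and 744 with no minimum, 115 and 141 by the interval bound, and 635 and 625 at 1.5-fold, against 223 and 227. Over the pathway lists without the other RGS genes, 9 genes were higher and 2 lower. At 1.5-fold these were 23 and 4, with 11 higher among the receptors. The lower count was 1 with thinning, with 20 CPM and by the interval bound, settings under which 0 receptors were lower, and 4 with no minimum. With GENCODE lengths the levels per kilobase, untreated and Dox, were 44.4 and 44.8 for Rgs10, 27.3 and 28.2 for Rgs19, 17.6 and 14.2 for Rgs2, 6.67 and 10.9 for Rgs14, 6.99 and 7.32 for Rgs12 and 2.27 and 2.58 for Rgs3, lower than with the listed, shorter lengths. With total counts, 5 receptors were higher in place of 6. The causes were not tested beyond the settings' own construction. No paired analysis was possible because each group has 1 library. Depth limits the 4 genes at or next to 0.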

Other observations

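Genes beside the RGS genes gave values of their own. Lman2, the gene next to Rgs14 at 6949 bases, had a log2 ratio of 0.21 (0.13 to 0.29) at 232 and 269 CPM, and the next gene on the other side, Slc34a1, had 0 counts in both libraries. Uchl5, beside Rgs2 at 191872 bases, had a ratio of -0.17 (-0.28 to -0.07). Tial1, beside Rgs10, had a ratio of -0.23 (-0.37 to -0.08), where that of Rgs10 itself was 0.01.

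Among genes whose mean CPM lay within 1.5 times of that of Rgs14, 2492 in number, 3.33% had a higher ratio. Among the 2662 genes so chosen around Rgs2, 12.4% had a lower ratio. These shares describe the libraries and are no test.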
